A study of Mus musculus with 3 samples.

Results

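The comparison described here sets RAW264.7 cells kept at high density with bacterial lipopolysaccharide (LPS) against the same cells at low density. RAW264.7 is a mouse macrophage line that was transformed with the Abelson virus. The comparison is described across genes: a gene was included if its symbol was in both deposited tables and it reached 1 FPKM (fragments per kilobase of transcript, scaled to the library's depth) in low density or LPS cells. That kept 10884 of 45089 symbols. Each of the 3 groups had 1 library of total RNA: low density without LPS, high density without LPS, and high density given LPS at 500 ng/ml for 24 h. LPS was started a day after seeding, per the labels, which give no cell numbers for either density and no separate harvest time for low density cells. No low density cells given LPS were analysed here, so density and LPS cannot be told apart in the difference between the outer groups. With 1 library a group, nothing here was tested between replicates, and all values describe these libraries.

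The untreated high density library links the outer groups. One table holds high over low density, the other LPS over untreated at high density. The net ratio of a gene is the sum of its ratios in the 2 tables, each as log2((FPKM + 1)/(FPKM + 1)), which makes the change of low genes look smaller than it is. A gene is called higher where that ratio was at least 1, and lower where it was at most -1, a 2-fold change on the same scale. Levels below are in the order low density, high density in the density table, high density in the LPS table, and LPS.

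Macrophages sense LPS through Toll-like receptor 4, which leads through NF-kB to cytokines and chemokines and through interferon to antiviral genes. Crowded cells use up oxygen and nutrients. When oxygen is low, hypoxia-inducible factors (HIF) are no longer destroyed and switch on genes of glycolysis, mitophagy and blood vessel growth. HIF binds a short core sequence, the hypoxia response element. Interferon-stimulated genes carry the interferon-stimulated response element (ISRE), and the stress factor ATF4 binds an element in genes of amino acid supply.

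The promoters below were picked by hand among genes with a promoter entry. They belong to 4 HIF targets that were all higher at high density but not alike with LPS, 1 interferon-stimulated gene and 1 ATF4 target. Each is the 250 bases before the annotated start from RefSeq (build GRCm38.p6), 5′ to 3′ on the gene's strand. Capitals mark the hypoxia response core (ACGTG or GCGTG) in the HIF targets, the ISRE (GAAA, any 2 bases, GAAA) in Isg15 and the ATF4 element (TGATGNAA) in Atf3, each on either strand, with overlapping matches run together. Positions are chr16:36071562-36071811 (Fam162a, minus strand), chr3:94932833-94933082 (Selenbp1, plus), chr7:110627407-110627656 (Adm, plus), chr8:45999851-46000100 (Ankrd37, minus), chr4:156200819-156201068 (Isg15, minus) and chr1:191183334-191183583 (Atf3, minus).
Fam162a: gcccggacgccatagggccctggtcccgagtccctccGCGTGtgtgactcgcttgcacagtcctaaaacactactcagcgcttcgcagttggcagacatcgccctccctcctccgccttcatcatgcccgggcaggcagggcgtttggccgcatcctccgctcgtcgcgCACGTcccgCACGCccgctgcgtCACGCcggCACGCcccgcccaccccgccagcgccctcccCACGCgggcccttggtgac
Selenbp1: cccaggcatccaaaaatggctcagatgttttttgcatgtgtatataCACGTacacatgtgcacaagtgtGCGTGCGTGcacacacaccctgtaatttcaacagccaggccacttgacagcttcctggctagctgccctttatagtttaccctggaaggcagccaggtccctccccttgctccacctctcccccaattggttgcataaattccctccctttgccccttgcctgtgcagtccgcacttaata
Adm: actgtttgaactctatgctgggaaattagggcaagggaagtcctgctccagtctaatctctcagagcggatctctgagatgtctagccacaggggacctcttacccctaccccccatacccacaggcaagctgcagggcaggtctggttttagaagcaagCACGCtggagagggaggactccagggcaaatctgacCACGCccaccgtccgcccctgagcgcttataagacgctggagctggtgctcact
Ankrd37: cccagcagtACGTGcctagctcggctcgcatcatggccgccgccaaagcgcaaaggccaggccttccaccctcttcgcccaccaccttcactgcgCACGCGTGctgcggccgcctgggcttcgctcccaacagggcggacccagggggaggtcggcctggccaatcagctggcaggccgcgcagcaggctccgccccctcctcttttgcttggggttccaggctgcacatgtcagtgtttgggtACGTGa
Isg15: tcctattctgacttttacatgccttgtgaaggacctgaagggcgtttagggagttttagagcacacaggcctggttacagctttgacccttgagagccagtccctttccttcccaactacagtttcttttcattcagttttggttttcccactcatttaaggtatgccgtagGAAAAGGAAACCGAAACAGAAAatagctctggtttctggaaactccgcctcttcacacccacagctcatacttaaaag
Atf3: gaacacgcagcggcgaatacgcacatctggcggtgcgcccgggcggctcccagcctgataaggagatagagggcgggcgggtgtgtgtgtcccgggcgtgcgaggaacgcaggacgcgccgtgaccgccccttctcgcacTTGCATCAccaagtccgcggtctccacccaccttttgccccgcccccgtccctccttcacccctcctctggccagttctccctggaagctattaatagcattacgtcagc
Fam162a held 6 matches to the hypoxia core, Selenbp1 3, Adm 2 and Ankrd37 4. Of 22 HIF targets outside glycolysis with a promoter in the table, 21 held the core, while 62.2% of the 8172 measured genes with a promoter did, and 38.6% of all 32851 promoters. Among genes 2-fold higher at high density, the core was in 68.1% of those within 2-fold with LPS in 65.0% of those 2-fold lower with LPS, and in 10 of 12 of those 2-fold higher again. The ISRE was in 10 of 27 interferon-stimulated genes, against 3.255% of the 8172 measured genes and 2.98% of all promoters. The ATF4 element was in 9 of 30 ATF4 targets, against 2.509% and 3.45%. The lists were chosen with earlier results of these data known. A match is a description of letters, not of binding.

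Across all 10884 genes, 1144 were 2-fold higher with LPS at high density than at low density, and 657 were lower, which is 10.5% and 6.04%. Higher genes made up 63.5% of the 2-fold changes. The split depended on scaling, at 52.5% when LPS was set directly against low density across tables and 41.3% after rescaling without the 20 highest genes. The median net ratio of all genes was 0.07, and these settings took it to -0.04 and -0.17. Of the higher genes, 710 were past 2-fold through the LPS ratio alone, 118 through the density ratio alone, 24 through both, and 292 (2.68% of all genes) only through the sum. Of the lower genes the counts were 337, 39, 1 and 280 (2.57%). In 56 of the higher and 28 of the lower genes the level was listed at 0 in low density or LPS cells, and for these no fold is given. These are bulk RNA values, in which fewer cells expressing a gene and less RNA per cell cannot be told apart.

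At high density alone, 321 of the 10884 genes were 2-fold higher (2.95%) and 95 lower (0.873%). After rescaling without the 20 highest genes these counts were 207 and 229, so the excess of higher genes depended on the scaling. With LPS over untreated cells, 8.59% of all genes were 2-fold higher, 5.24% lower and 86.2% within 2-fold. Of the 321 genes higher at high density, 218 were within 2-fold with LPS and are called kept. With LPS 79 were 2-fold lower, called reverted, and 24 were 2-fold higher again, called exceeded. The 79 comprised 13 still 2-fold above low density, 60 back within 2-fold of it, and 6 that ended 2-fold below it. Of the 218 kept genes, 105 were still 2-fold above low density, and a median of 71.3% of their log2 density ratio was left. Of the 95 genes lower at high density, 62 were kept, 1 exceeded and 32 reverted. Of the 62 kept genes, 39 were still 2-fold below low density with LPS. The 62 include 18 listed at 0 in 1 or more libraries, mostly small RNAs and predicted genes. Of the 32 reverted genes, 17 ended within 2-fold of low density and 15 ended 2-fold above it. Among the 32, 7 were also listed at 0 in 1 or more libraries, 5 of the 17 and 2 of the 15.

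The authors' deposited tables, at q under 0.05, call 25 of the measured genes higher at high density (0.23%), 2 lower (0.0184%), 31 higher with LPS (0.285%) and 4 lower (0.0368%). Of the 25, 12 were kept, 1 exceeded and 12 reverted.

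Both ratios of a gene use the same high density library. A high density value that is too high by error makes a density ratio higher and the LPS ratio lower by the same amount, so the counts of reverted genes are a description and hold that error. It nearly cancels in the net ratio. The minimum of 1 FPKM also left out 54 genes that were 2-fold higher at high density, of which 36 were back within 2-fold with LPS. Pseudocount, scaling and fold threshold change the counts more than 1.5 times, as given in the closing section.

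**Figure D1:**
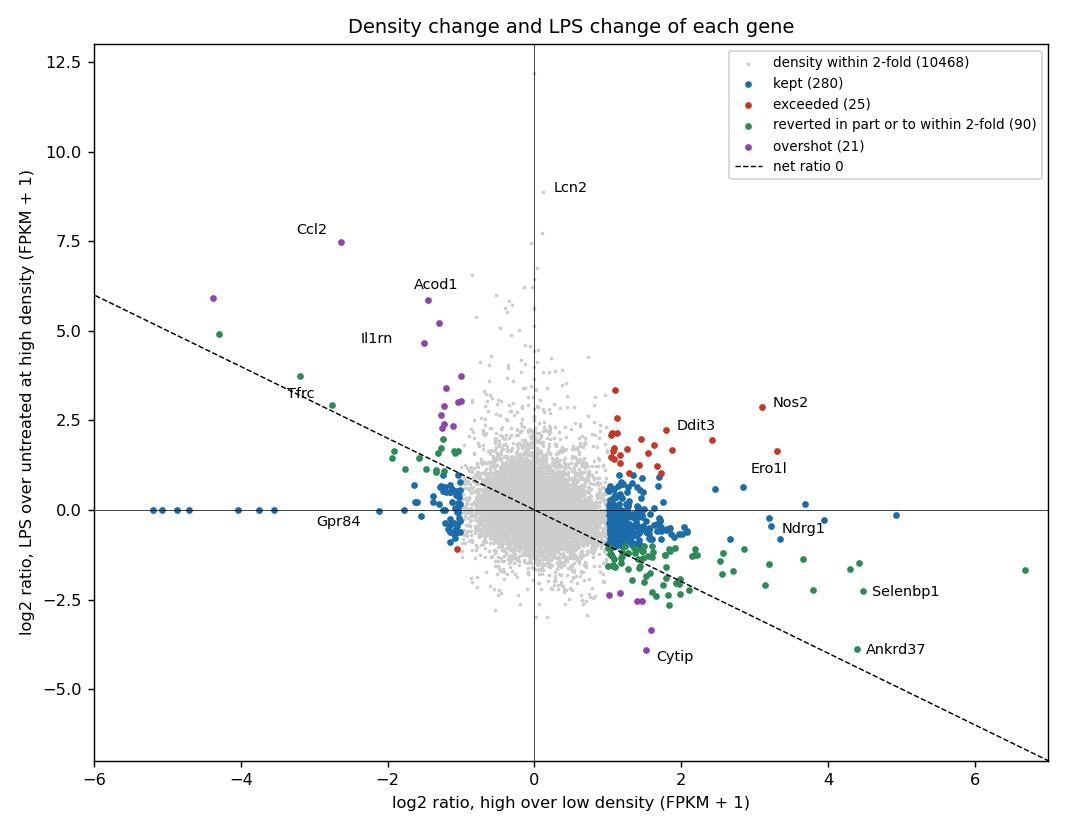
Each point is 1 gene, with its log2 ratio of high over low density on the x axis and of LPS over untreated at high density on the y axis; points on the dashed line have a net ratio of 0. Of 10884 genes, 10880 are drawn and 4 lie outside the axes; Tfrc and Ankrd37 lie near the dashed line, and Nos2 lies to the upper right, away from it. Overshot marks reverted genes that ended 2-fold past low density.

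Leading genes here and below are among those eligible for naming, of 10 FPKM or more in a library and above 0 in all. Predicted models, clones, small RNAs, pseudogenes, mitochondrial genes and joined rows were not eligible. The genes higher at high density whose LPS ratio was within 2-fold were led by Tnfrsf9, Ndrg1, Ero1l, Gbe1 and Echdc3. Positions are the loci in the authors' deposited table (GRCm38, mm10), which can span a neighbouring gene. Tnfrsf9 (4-1BB, a co-stimulatory receptor; chromosome 4, 150920155 to 150946104, 2 rows in each table) was 1.55, 38.4, 35.1 and 28.8 FPKM, a net log2 ratio of 3.67. Ndrg1, a hypoxia-induced gene of the NDRG family (chromosome 15, 66929318 to 66969641), was 23.5, 227, 206 and 151 FPKM, a net ratio of 2.77. Both stayed far above the low density library with LPS. Ero1l, an oxidase that drives disulphide formation in the endoplasmic reticulum (chromosome 14, 45283087 to 45318572), was 43.1, 316, 291 and 454 FPKM. Gbe1, the glycogen branching enzyme (chromosome 16, 70313949 to 70569720), was 3.95, 30.3, 27.8 and 15.4 FPKM. Echdc3 (chromosome 2, 6188465 to 6321611), which overlaps the gene A230108P19Rik, was 8.52, 36.1, 31.8 and 19.8 FPKM. All 5 had higher levels at high density with q = 0.0217 in the authors' deposited table. Gys1, glycogen synthase, was also kept, at 22.8, 76.8, 69.5 and 57.2 FPKM, although Ruvbl2 overlaps it.

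The genes higher at high density and 2-fold lower with LPS were led by Selenbp1, Adm, Ankrd37, Cmss1 and Selenbp2. Selenbp1, a methanethiol oxidase (chromosome 3, 94933083 to 94944758), was 9.22, 226, 206 and 42.2 FPKM. Its paralog Selenbp2 (chromosome 3, 94693573 to 94704406) was 1.13, 28.4, 25.7 and 4.68 FPKM. These near-identical neighbours can share reads, so their levels are uncertain. Both were about as much lower with LPS, at log2 ratios of -2.26 and -2.23, and both were still above low density, at 2.22 and 1.55. Adm, adrenomedullin, a peptide that widens blood vessels (overlapping Gm28863; chromosome 7, 110625467 to 110630906), was 0.822, 38.2, 34.6 and 11.7 FPKM. Adm was under 1 FPKM at low density and so measured only through the LPS library. A full return to its low density level would have left it out. Ankrd37, an ankyrin repeat gene that overlaps Ufsp2 (chromosome 8, 45975506 to 46000414), was 6.10, 148, 134 and 8.17 FPKM. Its density ratio of 4.39 and LPS ratio of -3.88 left a net ratio of 0.51. Cmss1 was 87.2, 1737, 1401 and 445 FPKM, but it has 2 rows and overlaps Filip1l and other genes, from which its reads cannot be told apart without strand.

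Other genes back within 2-fold of low density are given here after their values were seen. Gsn, gelsolin, which severs actin filaments, was 89.6, 355, 321 and 76.2 FPKM. Fxyd2, a regulator of the sodium pump, was 409, 1154, 1046 and 261 FPKM. Ltc4s, leukotriene C4 synthase, was 12.7, 46.2, 41.1 and 10.2 FPKM. Dbp, a clock output factor, was 5.35, 24.1, 21.4 and 3.38 FPKM. Each ended below its low density level by less than 2-fold. Cytip, which binds cytohesin in leukocyte adhesion, went furthest the other way among the 6 genes that ended 2-fold below low density, at 7.35, 22.9, 21.0 and 0.470 FPKM.

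**Figure D2:**
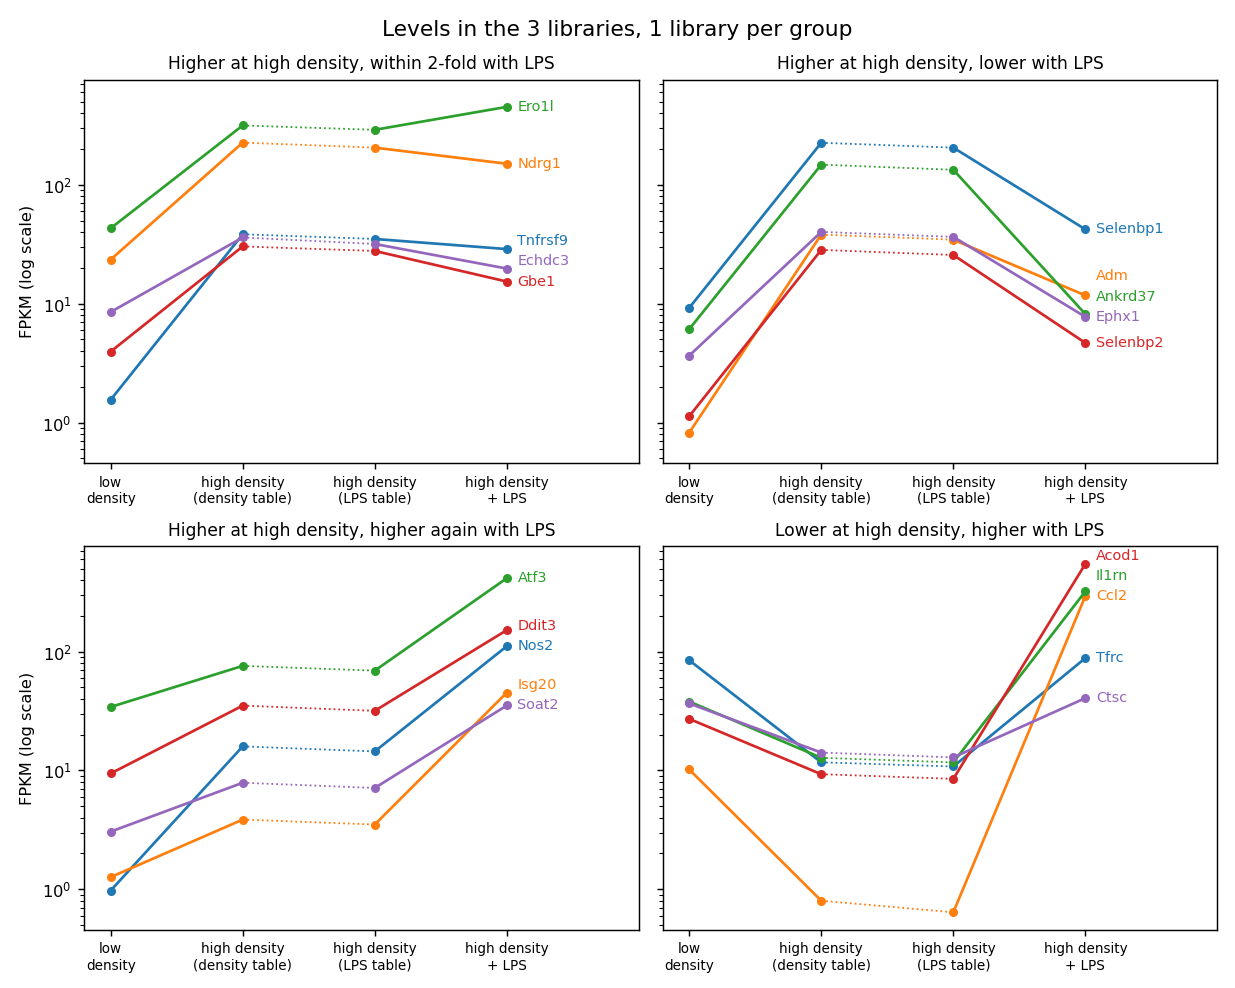
Lines join the FPKM of 1 gene (log scale) in the low density library, the high density library as given in each of the 2 tables (dotted between them), and the LPS library, for 5 genes in each of 4 patterns. Tfrc ends at 88.2 FPKM, near its 84.5 at low density, while Acod1 ends at 547 FPKM from 27.2.

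Among the 24 genes higher at high density and higher again with LPS were Nos2 and 4 ATF4 targets. Nos2, inducible nitric oxide synthase (chromosome 11, 78920787 to 78960226), was 0.974, 15.9, 14.4 and 111 FPKM, a density ratio of 3.10 and an LPS ratio of 2.86. Nos2 was under 1 FPKM at low density, so it was measured only through the LPS library. In the authors' deposited table it is called higher at high density (q = 0.0217) and just misses the 0.05 threshold with LPS (q = 0.0517). Isg20, an antiviral exonuclease (chromosome 7, 78913396 to 78920396), was 1.26, 3.86, 3.50 and 45.2 FPKM. Soat2, which esterifies cholesterol (chromosome 15, 102150415 to 102163469), was 3.05, 7.87, 7.12 and 35.2 FPKM. Slc2a1, the glucose transporter GLUT1, which Gm12867 and Gm52706 overlap, was 75.0, 202, 182 and 436 FPKM. It was the one measured glycolysis gene among the 24.

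The ATF4 targets among them were Atf3, Ddit3, Trib3 and Aldh1l2. Atf3, a stress-induced transcription factor (chromosome 1, 191170296 to 191183333), was 34.2, 75.8, 69.1 and 415 FPKM. Ddit3 (CHOP, a factor of the stress response; chromosome 10, 127225695 to 127312611), which Mars1 and Mbd6 overlap, was 9.42, 35.1, 31.7 and 152 FPKM. Trib3, a pseudokinase, was 5.67, 17.3, 15.6 and 64.5 FPKM. Of 35 measured ATF4 targets (41 listed), 26 were 2-fold higher in the net ratio and 0 lower, against 10.5% and 6.04% of all genes. At high density alone 8 were higher, against 2.95% of all genes. With LPS over untreated 17 were higher and 1 lower, against 8.59% and 5.24%. Both ratios were above 0 in 28 of the 35, and in 2435 of the 10884 measured genes. The median net ratio was 1.32, against 0.07 over all genes. Cth, which makes cysteine from cystathionine, moved through LPS alone, at 0.757, 0.692, 0.631 and 38.1 FPKM. Under 1 FPKM at both densities, Cth was measured only through the LPS library.

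The genes lower at high density whose LPS ratio was within 2-fold were led by Gpr84, Il1rl1, Id3, Dhrs9 and Slc39a14. Gpr84, a receptor for medium-chain fatty acids (chromosome 15, 103308233 to 103310670), was 56.3, 12.2, 11.0 and 10.7 FPKM, and the authors' deposited table calls it lower at high density (q = 0.0217). Il1rl1, the interleukin 33 receptor (chromosome 1, 40404834 to 40465418), was 10.7, 2.99, 3.33 and 2.83 FPKM. Both were 2-fold below low density with LPS. Id3, an inhibitor of helix-loop-helix factors (chromosome 4, 136143822 to 136145392), was 20.8, 7.33, 6.56 and 8.91 FPKM. Dhrs9, a short-chain dehydrogenase (chromosome 2, 69378851 to 69407884), was 10.6, 3.86, 4.56 and 9.87 FPKM, with an LPS ratio of 0.97, just inside 2-fold. Slc39a14, a zinc and iron importer (chromosome 14, 70303467 to 70351452), was 17.2, 6.89, 6.14 and 9.08 FPKM. The net ratios of Id3, Dhrs9 and Slc39a14 were -0.99, -0.28 and -0.71, so these genes ended within 2-fold of low density. Ttc39aos1, an RNA that overlaps Ttc39a (chromosome 4, 109394147 to 109444749), was the 1 gene lower at high density and 2-fold lower again with LPS, at 13.5, 5.95, 5.26 and 1.95 FPKM.

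Tfrc, the transferrin receptor that brings iron into cells (chromosome 16, 32608896 to 32632794), was 84.5, 11.7, 10.8 and 88.2 FPKM. Its density ratio of -2.75 and LPS ratio of 2.92 left a net ratio of 0.17, so LPS cells were at the low density level. It was the 1 measured gene called in both of the authors' deposited tables, lower at high density (q = 0.0217) and higher with LPS (q = 0.0174). Ctsc, cathepsin C (chromosome 7, 88278024 to 88315861), also came back to its low density level, at 36.6, 14.1, 12.9 and 40.6 FPKM.

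Among the 15 genes lower at high density that ended 2-fold above low density were Ccl2, Acod1 and Il1rn. Ccl2, a monocyte chemokine (chromosome 11, 82035577 to 82037452), was 10.2, 0.800, 0.640 and 293 FPKM, a net ratio of 4.85. Acod1, which makes itaconate (chromosome 14, 103041576 to 103056573), was 27.2, 9.29, 8.49 and 547 FPKM. Il1rn, the interleukin 1 receptor antagonist (chromosome 2, 24336860 to 24351491), was 38.0, 12.8, 11.7 and 322 FPKM. In all 3, high density was the lowest library and LPS the highest. The scavenger receptor genes Msr1 and Cd36 had the same order, at 49.1, 20.3, 18.7 and 147 FPKM and at 17.5, 8.26, 7.65 and 69.5 FPKM. Of 15 measured scavenger and phagocytic receptor genes (23 listed), 5 were 2-fold higher in the net ratio and 0 lower, with a median of 0.71. Of the 15 measured, 1 was under 1 FPKM at both densities and so measured only through the LPS library. Over all genes 10.5% were higher and 6.04% lower.

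HIF targets outside glycolysis were the list with the highest median at high density, 1.52, and its median with LPS was -0.46. The list was chosen with earlier results of these data known, so its rank and counts are a description. Its LPS ratios use the same high density library as its density ratios. Of 28 measured members (37 listed), 21 were 2-fold higher at high density, against 2.95% of all genes. With LPS over untreated, 8 were 2-fold lower and 1 higher, against 5.24% and 8.59%. In the net ratio 15 were 2-fold higher and 0 lower, against 10.5% and 6.04% of all genes. The net median was 1.10, with a range from 0.06 to 3.49. Of the 21, 13 were kept and 8 reverted. The latter were Selenbp1, Selenbp2, Adm and Ccng2, still above low density by 2-fold, and Ankrd37, Bnip3, Ddit4 and Egln1, within 2-fold of it. Egln1, the prolyl hydroxylase that marks HIF for destruction, was 15.9, 66.0, 59.5 and 14.9 FPKM. Ddit4, an inhibitor of mTORC1, was 18.4, 113, 102 and 28.9 FPKM. Bnip3, a mitophagy receptor, was 71.4, 324, 297 and 123 FPKM, whereas its paralog Bnip3l was kept, at 30.7, 83.0, 76.2 and 77.4 FPKM. Fam162a, a mitochondrial protein that promotes apoptosis, was kept, at 186, 679, 618 and 389.8 FPKM. Vegfa, the vascular growth factor, was also kept, at 24.5, 65.9, 56.8 and 61.8 FPKM. Hmox1, haem oxygenase, was within 2-fold at high density and was higher with LPS, at 116, 213, 193 and 776 FPKM. Hilpda, a lipid droplet protein joined with Fam71f2 in 1 row and so left out of the list, was 35.9, 134, 120 and 388 FPKM in that row.

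**Figure D3:**
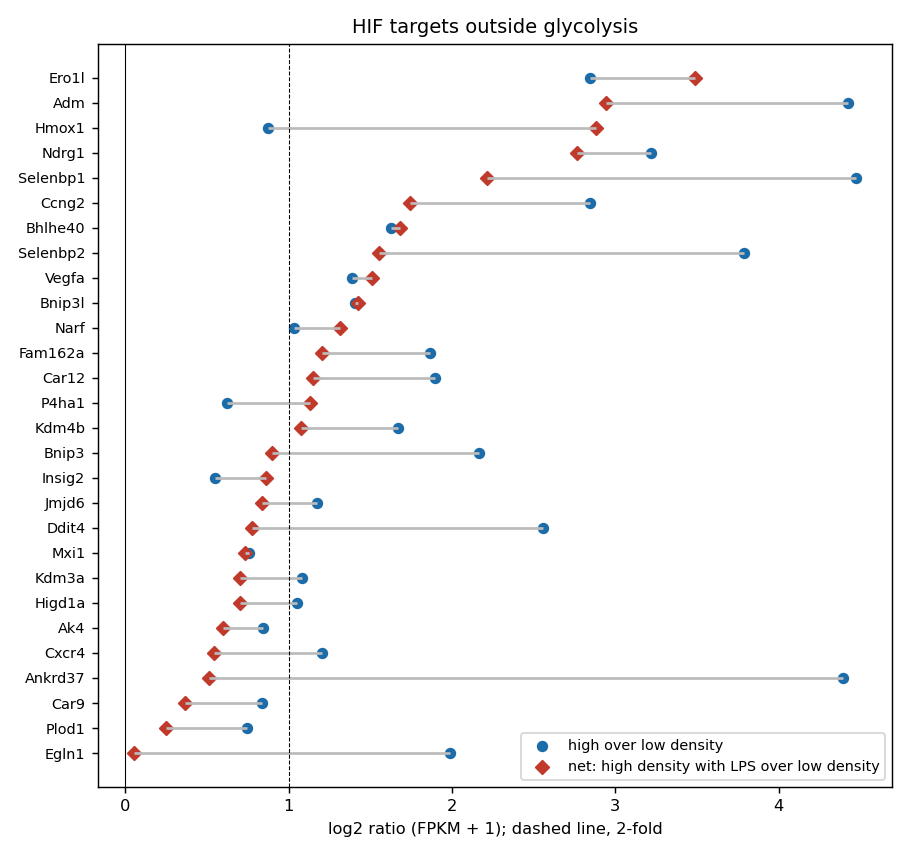
For each of the 28 measured HIF targets outside glycolysis, the circle is the log2 ratio of high over low density and the diamond is the net log2 ratio of high density with LPS over low density. All diamonds are above 0, from 0.06 for Egln1 to 3.49 for Ero1l, and the longest line is that of Ankrd37.

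Glycolysis genes had a median density ratio of 0.80 and a median LPS ratio of -0.17. Of 23 measured members (24 listed), 8 were 2-fold higher at high density, against 2.95% of all genes. Of these, 6 were kept, 1 exceeded and 1 reverted. In the net ratio 6 were 2-fold higher and 0 lower, against 10.5% and 6.04% of all genes, with a median of 0.63. Pfkp, the platelet-type phosphofructokinase, was 82.2, 247, 225 and 207 FPKM, although Pitrm1 and Gm35730 overlap it. Pfkm, the muscle-type enzyme, was 24.1, 55.9, 44.5 and 16.9 FPKM, below its low density level. Pfkfb3, which makes the activator of phosphofructokinase, was 9.07, 18.9, 17.2 and 57.2 FPKM. These 3 genes thus ended differently against low density. Hk3, a hexokinase that Unc5a overlaps, was 60.2, 89.3, 94.0 and 190.2 FPKM. Of 11 measured glycogen genes (18 listed), 3 were 2-fold higher in the net ratio and 0 lower. They were Gbe1, Gys1 and Pgm1, and the net ratio of Pgm1 was 1.02, or 0.76 after rescaling.

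Interferon-stimulated genes, cytokines and NF-kB members had median LPS ratios of 2.70, 2.10 and 1.40. Of 39 measured interferon-stimulated genes (51 listed), 36 were 2-fold higher in the net ratio and 1 lower, with a median of 2.57. Over all genes 10.5% were higher and 6.04% lower. At high density alone 1 of the 39 was higher and 1 lower, near the 2.95% and 0.873% of all genes. Isg15, a ubiquitin-like modifier (chromosome 4, 156165164 to 156200818), was 2.41, 2.34, 2.13 and 230.4 FPKM. Oasl1, Zbp1 and Irf7, which act in antiviral defence, had net ratios of 5.71, 5.48 and 5.46. Of 23 measured cytokine and chemokine genes (36 listed), 20 were 2-fold higher and 0 lower, with a median of 2.19. That median was 1.34 with no minimum, 1.11 at a pseudocount of 5 FPKM and 4.22 at 0.1 FPKM. A gene under 1 FPKM at low density was measured only through the LPS library, where it had to be 1 FPKM or more. This was so at both densities for 13 of the 39 and 11 of the 23, so these counts are partly fixed by the minimum.

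Among the genes eligible for naming, the largest net ratios were those of Lcn2, Ccl5, Csf3, Urah and Isg15. Over all measured genes the largest was 12.2. Lcn2, Csf3 and Urah were under 1 FPKM at low density, so they were measured only through the LPS library. Lcn2, lipocalin 2, which binds iron-carrying siderophores (chromosome 2, 32384637 to 32387739), was 0.256, 0.358, 0.326 and 618 FPKM. Ccl5, a T cell chemokine (chromosome 11, 83511289 to 83546540, overlapping Gm32650), was 2.40, 2.64, 2.39 and 719 FPKM. Csf3 (G-CSF, a growth factor of neutrophil precursors; chromosome 11, 98695980 to 98703631), was 0.0941, 0.0609, 0.0551 and 184 FPKM. Urah, an enzyme of urate breakdown (chromosome 7, 140834958 to 140846769), was 0.198, 0.222, 0.202 and 128 FPKM. All 4 were within 2-fold between densities and under 3 FPKM there, on few fragments. Of 29 measured NF-kB members (30 listed), 18 were 2-fold higher in the net ratio and 0 lower, with a median of 1.38. Cd274 (PD-L1) was 3.53, 7.84, 7.18 and 74.1 FPKM, although Plgrkt and Gm36043 overlap it. Traf1, a signalling adaptor, was 5.44, 3.17, 2.88 and 45.6 FPKM. Of 27 measured Toll-like receptors and adaptors (30 listed), 4 were higher and 3 lower, near the 10.5% and 6.04% of all genes, with a median of 0.28. Irak2, a kinase of Toll signalling, was 16.6, 20.4, 16.6 and 85.5 FPKM, while Tlr13, a sensor of bacterial RNA, was 16.0, 11.4, 10.4 and 4.73 FPKM.

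Among the genes eligible for naming, the smallest net ratios were those of Crip1, Cx3cr1, Rab26os, S100a4 and Ankle1. Over all measured genes the smallest was -9.24. Cx3cr1, the fractalkine receptor (chromosome 9, 120048683 to 120071051, overlapping Gm33858), was 66.6, 46.8, 42.6 and 7.49 FPKM. S100a4, a calcium-binding protein of cell migration (chromosome 3, 90603770 to 90606045), was 1879.5, 1644, 1506 and 243 FPKM. Crip1, a LIM domain protein (chromosome 12, 113152012 to 113153879, 3 rows in each table), was 18.6, 19.0, 17.2 and 1.31 FPKM. In these 3 genes the densities were within 2-fold and LPS was the lowest library. Rab26os (chromosome 17, 24528251 to 24528744) and Ankle1, a nuclease (chromosome 8, 71405348 to 71410728), had net ratios of -2.82 and -2.77, and both overlap other gene models.

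Mitosis and DNA replication genes had median net ratios below 0, but their density medians were 0.02 and -0.47. Of 37 measured mitosis genes (38 listed), 23 were 2-fold lower in the net ratio and 0 higher, against 6.04% and 10.5% of all genes, with a median of -1.13. Of the 37, 0 were past 2-fold between densities, where 2.95% of all genes were higher and 0.873% lower. With LPS over untreated 20 were 2-fold lower, against 5.24% of all genes. Plk1, a mitotic kinase, was 69.6, 75.1, 67.9 and 20.4 FPKM. Kif2c and Kif20a, mitotic kinesins, had net ratios of -1.59 and -1.58, and Brd8 and Cdc23 overlap the latter. Cdk1 was 83.6, 66.0, 25.1 and 11.1 FPKM. Its high density values differ between tables, so its net ratio of -1.45 (-2.80 taken directly across tables) is uncertain. Of 41 measured replication genes (42 listed), 9 were 2-fold lower and 0 higher, with a median of -0.69. In 29 of the 41 both ratios were below 0, as in 2127 of the 10884 measured genes. Cdc6, which loads the replicative helicase, was 15.3, 7.55, 6.90 and 4.04 FPKM. Rrm2, a subunit of ribonucleotide reductase, was 106, 47.3, 43.3 and 32.1 FPKM, and Uhrf1, a partner of DNA methylation, was 70.1, 41.8, 37.9 and 22.8 FPKM. In each, both ratios were below 0, and of the 6 ratios the density ratio of Rrm2, -1.15, was past 2-fold.

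Of 22 measured cholesterol synthesis genes (25 listed), 4 were 2-fold lower in the net ratio and 0 higher, with a median of -0.67. Over all genes 6.04% were lower and 10.5% higher, which also stands beside the lists that follow here. Idi1, isopentenyl diphosphate isomerase, was 27.3, 15.4, 14.1 and 5.99 FPKM. In fatty acid synthesis and storage, 4 of 23 measured genes (26 listed) were higher and 4 lower. Fasn, fatty acid synthase, was 91.0, 73.1, 65.9 and 19.4 FPKM, whereas Plin2, a coat protein of lipid droplets, was 172, 172, 157 and 549 FPKM. Of 23 measured p53 targets and cell-cycle inhibitors (27 listed), 11 were higher and 1 lower, with a median of 0.99. In this list 2 members were under 1 FPKM at both densities and so measured only through the LPS library. Cdkn1a, encoding p21, (2 rows) was 32.0, 63.2, 57.0 and 124 FPKM, past 2-fold with LPS and just under it at high density. Bbc3 (PUMA), which promotes apoptosis, was 23.4, 53.8, 47.7 and 140.3 FPKM, 2-fold higher at both steps.

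Of 28 measured endoplasmic reticulum chaperone and degradation genes (30 listed), 4 were 2-fold higher and 0 lower in the net ratio. Their median was -0.32 at high density, 0.49 with LPS and 0.16 net, and the net median was -0.10 after rescaling, so no direction is given. Hspa5 (BiP), the main chaperone there, was 896, 548, 503 and 2308 FPKM, although Rabepk overlaps it. Of 18 measured iron genes (22 listed), 6 were 2-fold higher and 2 lower, with a median of 0.21 that was -0.05 after rescaling. Of the 18, 2 were under 1 FPKM at both densities and so measured only through the LPS library, Lcn2 among them. For both lists the share over all genes was 10.5% higher and 6.04% lower. Fth1, the ferritin heavy chain, was 7037, 7900.3, 7152 and 28640.5 FPKM, and Slc11a2, an iron importer, 22.6, 22.6, 20.5 and 66.0 FPKM. Of 73 measured cytosolic ribosomal protein genes (79 listed), 0 were past 2-fold, with a median of 0.55 at high density and 0.49 net, or 0.22 net after rescaling.

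**Figure D4:**
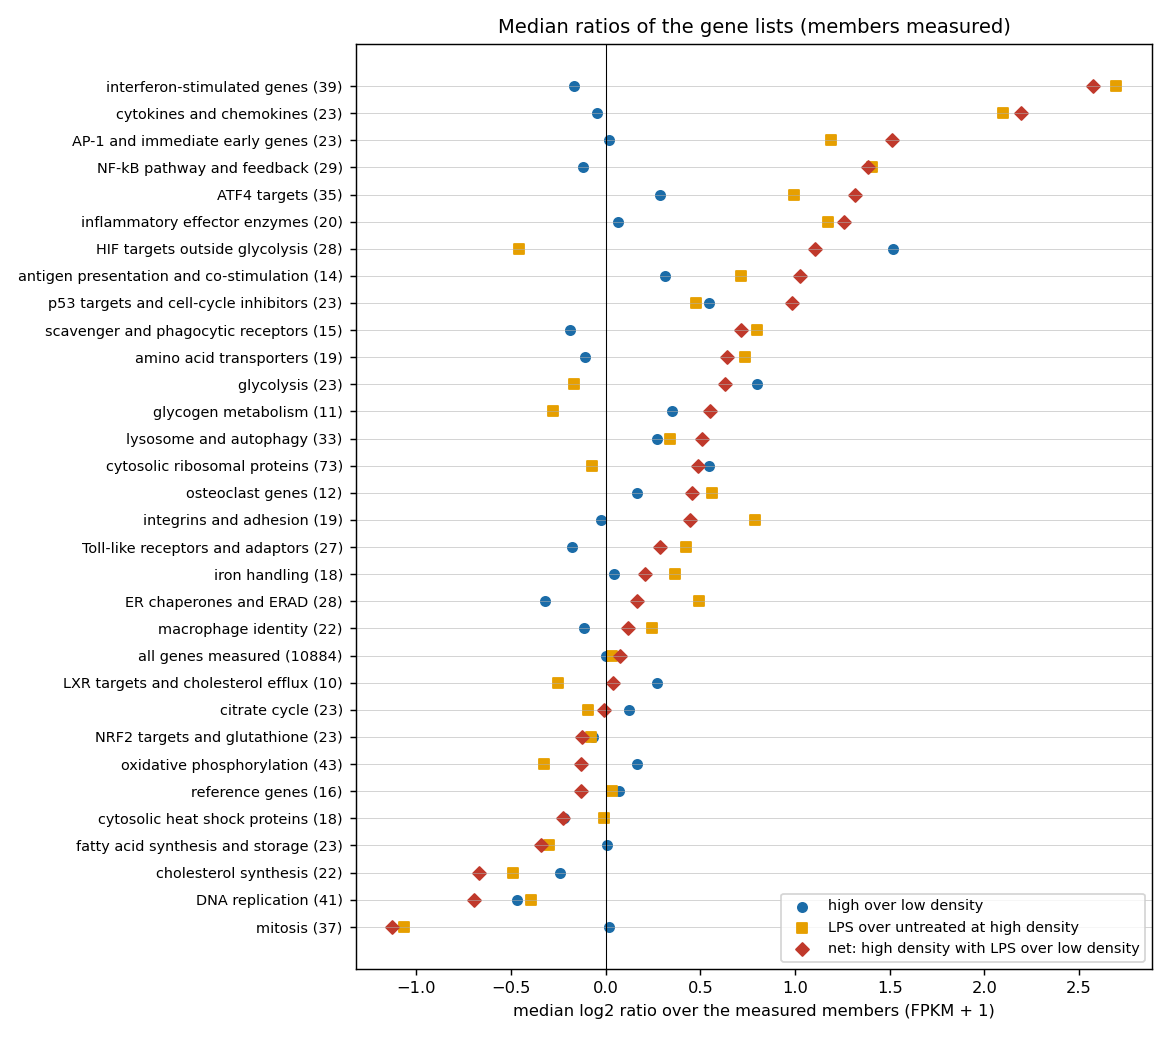
For each gene list (number of measured members in brackets) the symbols give the median log2 ratio of high over low density, of LPS over untreated at high density, and the net ratio. Net medians run from -1.13 for mitosis to 2.57 for interferon-stimulated genes, and the HIF list has the highest density median, 1.52, above its net median of 1.10. The lists were chosen with earlier results of these data known.

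The libraries were of macrophage type by their markers. Of 9 macrophage markers, 8 were at 1 FPKM or more, and their summed levels were 3061, 2446, 2232 and 2703 FPKM. Cd68 was not in the joined tables under its own symbol. Marker lists of lymphocytes, fibroblasts, epithelial and dendritic cells had 0 members at 1 FPKM. Of 5 neutrophil markers, 2 reached it, S100a8 and Elane, and S100a9 was listed at 0. Over transcripts of 1 kilobase, 1 FPKM stood for about 16.2, 15.8, 17.5 and 14.45 fragments in the same order. Values near 1 FPKM thus carry wide counting error.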

How the data were processed

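RNA from 3 libraries of RAW264.7 cells was compared, 1 library per group. The submitters' processing notes list Cuffdiff, TopHat2, fastp and FastQC, and as builds mm10 and GRCm38. No version, annotation, scaling or use of strand is given in the sources used here. Per the file headers, the authors gave GEO 2 deposited tables of FPKM per locus with Cuffdiff's column names, with their log2 ratio, test score, p-value and q-value, made without replicates. Where q is printed it comes from those tables. Starts were raised by 1 to be 1-based. No per-sample column was left unused.

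Rows without a symbol (1154 of 49850 and 1233 of 49971) and 12 rows with failed status in the LPS table were set aside. Where 1 symbol had several rows, that of largest summed FPKM was taken, separately in each table. In 3 genes the rows lay at different loci, none of them changed by density, and 280 of the measured genes were rows joined with a neighbour. Over 10206 genes at 1 FPKM or more in both, the high density library was lower in the LPS table, by a median log2 of -0.13. In 38 genes the 2 values were 2-fold or more apart.

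The depth was read from steps in the lowest FPKM of genes with 1 transcript of at least 1 kilobase in GENCODE. The code was run on simulated data with set changes and no added noise. That run checks the code only and does not measure the error of the counts given here. Members, lists and rules were chosen with earlier results of these data known. Named genes are, among genes of 10 FPKM or more and above 0 in all libraries, the 5 kept, reverted and exceeded genes with the largest ratio per direction, the 5 largest and smallest net ratios and up to 4 per list. Predicted models, clones, small RNAs, mitochondrial genes and joined rows were left out of this selection. Other members of a list are named with the list. Promoters are from RefSeq. Python 3.11.15 with pandas 2.3.3 was used. Alternatives were other pseudocounts, minima, scalings, row and status rules and fold thresholds.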

Additional observations from a re-analysis of the deposited data

How the results depend on the processing

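No paired analysis was possible because each group has 1 library, and for the same reason no library could be left out. Counts of genes moved with the pseudocount, the scaling and the fold threshold. At a pseudocount of 0.1 FPKM, 1040 genes were lower in the net ratio; of genes higher at high density 82 were exceeded and 119 reverted, and of genes lower there 135 were kept, 16 exceeded and 99 reverted. At a pseudocount of 5 FPKM, 622 genes were higher and 235 lower in the net ratio, with 106 kept, 9 exceeded and 39 reverted among genes higher at high density, and 22, 0 and 14 among genes lower. A larger pseudocount shrinks the ratios of low genes by construction. With a minimum of 5 FPKM, 49 genes higher at high density were reverted. After rescaling without the 20 highest genes, 1134 genes were lower in the net ratio, 127 were kept and 12 exceeded among genes higher at high density, and 166 were kept, 10 exceeded and 53 reverted among genes lower. The cause was not tested. A 3-fold threshold gave 53 kept, 6 exceeded and 22 reverted, and 17, 0 and 7. With only genes whose high density values were above 0 and close in both tables, 40 genes lower at high density were kept. This setting also drops genes listed at 0 at high density in both, and 18 of the 62 kept genes were listed at 0 in 1 or more libraries.

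No called net ratio of a named gene, and no list median past 2-fold, changed sign under the 8 alternatives run for them. Of the comparisons of named genes with their main value, 1059 stayed on the same side of 2-fold, 17 dropped within it and 6 passed it. Of the list medians, 232 stayed, 15 dropped within it and 1 passed it. Smaller medians that changed sign after rescaling were those of endoplasmic reticulum chaperones, iron, LXR and macrophage identity genes, and they are reported without one. The HIF median of 1.10 was 0.77 at a pseudocount of 5 FPKM, 0.81 with no minimum, 0.85 after rescaling and 0.97 across tables.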

Other observations

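A set of genes passed 2-fold only through the sum of both steps, 292 higher and 280 lower (2.68% and 2.57% of the 10884 genes). Examples were chosen after their values were seen. Levels are in FPKM at low density, at high density in the density table and in the LPS table, and with LPS. Among those lower, Srsf2 was 264, 145, 131 and 72.4, Srsf6 was 106, 54.1, 47.7 and 29.0, and Srsf1 was 19.0, 12.8, 11.7 and 6.12, which are 3 splicing factor genes. Pfas and Gart, which act in purine synthesis, were 22.2, 10.7, 9.74 and 6.32, and 85.3, 55.6, 50.5 and 32.1. E2f8, a cell-cycle repressor, was 15.1, 7.86, 7.16 and 4.07. Among those higher were Tspo, a mitochondrial outer membrane protein, at 109, 191, 173 and 321, Atg13, which starts autophagy, at 26.7, 46.7, 42.4 and 84.9, and Ripk2, a kinase downstream of NOD receptors, at 8.57, 14.8, 13.5 and 26.8.

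Of 14 measured antigen presentation and co-stimulation genes (26 listed), 7 were 2-fold higher in the net ratio and 0 lower. Over all genes 10.5% were higher and 6.04% lower. All 14 had a net ratio above 0, as did 5917 of the 10884 genes. Cd40 was 2.37, 4.94, 4.50 and 40.6, and Cd83 12.5, 30.2, 27.5 and 46.1. Of 19 measured integrin and adhesion genes (25 listed), 4 were higher and 1 lower. Itga4, the alpha 4 integrin, was 46.9, 32.7, 30.1 and 7.97, while Itgb2, the beta 2 integrin, was 63.2, 81.1, 73.9 and 174. Among macrophage identity genes, Fcgr3, an Fc receptor, was 15.1, 25.4, 23.1 and 2.17 and Adgre1 (F4/80) was 18.7, 19.9, 18.2 and 75.5. Sqstm1, the autophagy adaptor p62, was 119, 161, 146 and 1335.

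Other lists gave these values. Of 20 measured inflammatory effector enzymes (24 listed), 12 were higher and 0 lower in the net ratio, against 10.5% and 6.04% of all genes. Of those 20, 5 were under 1 FPKM at both densities and so measured only through the LPS library, and the list median of 1.26 was 0.78 with no minimum. Of 23 AP-1 and immediate early genes (28 listed), 14 were higher and 4 lower. In the AP-1, macrophage identity and osteoclast lists, 1 member each was likewise measured only through the LPS library. The counts that follow stand against the same shares over all genes, and most lists have few members. Of 33 lysosome and autophagy genes 5 were higher, and of 19 amino acid transporters 6. Of 23 NRF2 and glutathione genes 5 were higher and 3 lower, of 22 macrophage identity genes 4 and 3, of 18 heat shock genes 1 and 1, of 10 LXR genes 2 and 1, of 12 osteoclast genes 3 and 0, of 16 reference genes 3 and 0, of 23 citrate cycle genes 0 and 1 and of 43 oxidative phosphorylation genes 0 and 0.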
